A study of Mus musculus with 2 samples.

Results

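Genes that mark T cells, B cells and natural killer (NK) cells were examined in RNA-seq of primary hepatocytes from control and CCl4-injured mouse livers. The 9 genes were given by symbol and found through their RefSeq transcripts, out of 20317 genes with a symbol in the deposited mRNA table. They were Cd3e and Cd3g of the T cell receptor complex, the T cell co-receptors Cd4 and Cd8a, Cd79a and Cd79b of the B cell receptor complex, and Nkg7, Gzma and Gzmb of cytotoxic granules. The table held 10 transcripts of these genes, of which 2 belonged to Cd8a. All mice were wild-type C57BL/6J, and the methods describe them as males bought at 5 weeks of age. The oil group received intraperitoneal oil and the CCl4 group a 20% CCl4 solution in mineral oil at 2.5 ml CCl4 per kilogram, with 2 injections per week, for 8 weeks by the labels and 4 weeks by the methods. Hepatocytes were taken by pronase and collagenase digestion with a density gradient, and no step of the methods removes lymphocytes by a surface marker. The paper checked purity by qRT-PCR of genes specific to hepatocytes, stellate cells and Kupffer cells, and names no lymphocyte gene in that check. Each group was 1 library, and the sources used here do not give the number of mice behind it, so no difference below has a replicate check and no p-value is given.

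T and B lymphocytes recognise antigen through receptors that cannot signal by themselves. The CD3 chains carry the signal of the T cell receptor into the cell, and the CD79 chains do the same for the B cell receptor. CD4 and CD8 mark helper and cytotoxic T cells, whereas NK cells kill without such a receptor and share their granule proteins with cytotoxic T cells. The healthy mouse liver houses NK and related innate lymphoid cells in its sinusoids besides T and B cells, and all of these gather in the chronically injured liver.

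The values are RPKM, that is reads scaled to the length of the transcript and the size of the library, so levels of different genes can be compared per length. The table lists a value below 1 RPKM as 0. In the separately deposited lncRNAs absent from the annotation, where the values were also given without that cutoff, all 1354 entries listed at 0 in the oil library lay at or below 0.9995 RPKM and all 1347 in the CCl4 library at or below 0.977 RPKM. A 0 can also stand for a missing estimate, so a gene is said here only to be listed at 0. RPKM values of short genes were multiples of a smallest step, which fitted library totals of 57992574 reads for oil and 64655544 for CCl4, from which a lower bound on the reads behind a value was obtained. Intervals given with RPKM values and ratios are 95% intervals from these reads and cover counting error only. In the table as a whole, 12012 genes were listed above 0 in at least 1 library and their median log2 ratio of CCl4 over oil was 0.33. All 10 hepatocyte marker genes checked were listed in both libraries, with the highest level for albumin (Alb) at 8656 RPKM in oil and 6476 RPKM in CCl4, and all 10 were lower in CCl4. In bulk samples such as these, fewer cells of a type and less RNA per cell cannot be told apart.

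Both B cell receptor genes were several-fold higher in the CCl4 library, whereas the T cell and granule genes with values in both libraries were level or lower. Of the 9 genes, 6 were listed above 0 in both libraries, Gzmb was listed in the oil library only, and Cd3e and Cd8a were listed at 0 in both. A gene was counted as past the fold at a log2 ratio of at least 1 in size, with a listed 0 set to the 1 RPKM cutoff, and 2 of the 7 listed genes were then past it upward and 1 downward. Among all 12012 listed genes the same rule was met upward by 16.5% and downward by 5.39%. If the libraries were scaled so that the median mRNA transcript had the same level, a shift of 0.33 on the log2 scale, 9.04% were past the fold upward and 9.82% downward, and the members past it downward became 3.

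**Figure D1:**
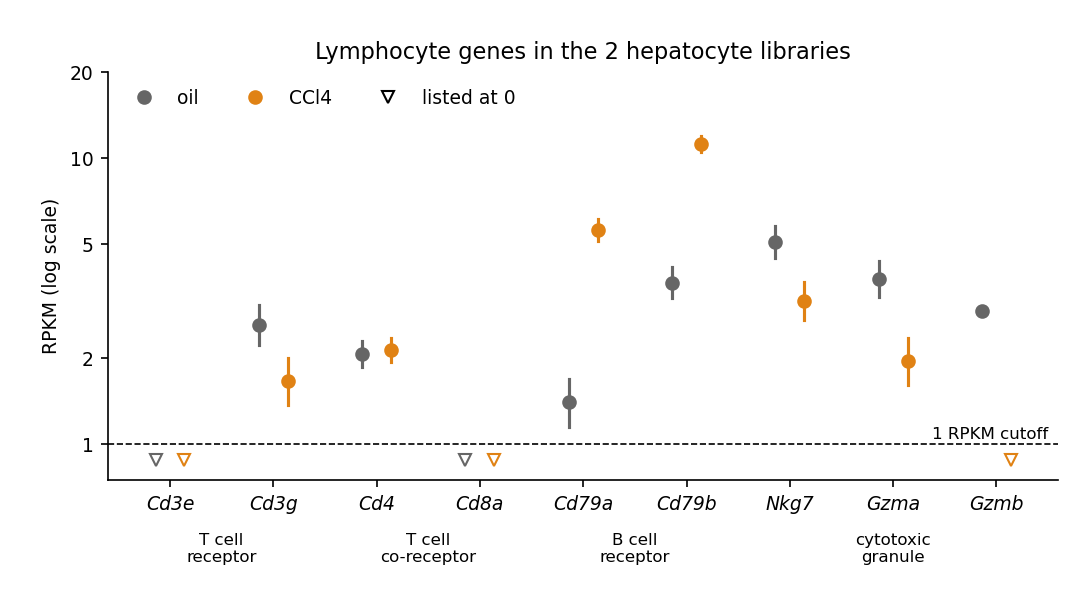
RPKM of the 9 genes on a log axis in the oil library (grey) and the CCl4 library (orange), with vertical lines for 95% counting intervals. Open triangles under the dashed 1 RPKM cutoff are genes listed at 0, and no interval is drawn for Gzmb, whose reads are known only as at least 10. Cd79a and Cd79b are the only genes of the 9 whose CCl4 point lies above the oil interval.

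CD79a (Igα) and CD79b (Igβ) form the signalling pair of the B cell receptor. Cd79a (NM_007655) lies on chromosome 7 at chr7:24897497-24901858 and Cd79b (NM_008339) on chromosome 11 at chr11:106311341-106314562 in GRCm38, the assembly that the submitters' notes call mm10. Cd79a was at 1.403 RPKM in the oil library (1.15 to 1.69) and at 5.62 RPKM in the CCl4 library (5.13 to 6.14). Behind these levels stood 108 reads or more in oil and 482 or more in CCl4. The CCl4 library was thus 4.003 times the oil library, with counting error between 3.24 and 4.98. Cd79b was at 3.67 RPKM in the oil library (3.23 to 4.15) and at 11.2 RPKM in the CCl4 library (10.5 to 12.0), from at least 255 and at least 869 reads. Its ratio was 3.06 (2.66 to 3.53).

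On the log2 scale the ratios were 2.001 for Cd79a and 1.61 for Cd79b, and 1.68 and 1.29 after scaling to the median mRNA. Of all listed genes, 97.6% had a lower log2 ratio than Cd79a and 95.0% a lower one than Cd79b. The pair also moved up within each library's own ranking, since Cd79a exceeded 6.18% of the genes listed in the oil library and 42.6% of those listed in the CCl4 library, and Cd79b 32.7% and 66.9%. The level of Cd79a relative to Cd79b was 0.382 in the oil and 0.501 in the CCl4 library, a change of 1.31 times with counting error from 1.01 to 1.70. The nearest annotated gene to Cd79a, Arhgef1, a signalling gene of blood cells that starts or ends 1127 bases away, went from 7.87 to 16.2 RPKM. The nearest to Cd79b, the muscle sodium channel gene Scn4a at 2982 bases, was listed at 0 in both libraries.

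CD3ε and CD3γ pair with each other inside the T cell receptor complex, yet only one of their genes was listed. Cd3g (NM_009850, chr9:44969572-44980431) was at 2.61 RPKM in the oil library (2.22 to 3.06) and at 1.66 RPKM in the CCl4 library (1.37 to 2.004), from at least 155 and at least 110 reads. The CCl4 level was 0.637 times the oil level (0.494 to 0.818), a log2 ratio of -0.65, and 10.3% of the listed genes had a lower one. Cd3e (NM_007648, chr9:44998735-45009663), which lies 18303 bases from Cd3g, was listed at 0 in both libraries, as were 40.9% of all genes with a symbol. Cd3d, the CD3δ gene between them and 1337 bases from Cd3g, had 1.06 RPKM in oil, next to the cutoff, and was listed at 0 in CCl4. Cd247, which encodes the ζ chain of the complex, went the other way, from 1.05 to 1.62 RPKM with a log2 ratio of 0.62 (0.22 to 1.03). The 3 chains with a value thus had no common direction.

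CD4, the helper co-receptor that regulatory T cells and some dendritic cells and macrophages also carry, was level. Cd4 (NM_013488, chr6:124864693-124888247) was at 2.07 RPKM in the oil library (1.87 to 2.29) and at 2.14 RPKM in the CCl4 library (1.94 to 2.35). With at least 372 and at least 428 reads it was the most deeply covered of the T cell genes among the members, and counting error placed the ratio of 1.03 between 0.896 and 1.19. After scaling to the median mRNA the ratio was 0.824. Cd8a (chr6:71373427-71379171), the α chain of the cytotoxic co-receptor, was listed at 0 in both libraries for each of its transcripts, NM_001081110 and NM_009857. Its partner chain Cd8b1 was listed at 0 in the oil library and at 1.11 RPKM in the CCl4 library. By the same cutoff the log2 ratio of Cd8b1 was at least 0.16, and no ratio can be given for Cd8a.

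Of the 3 granule genes, Nkg7 and Gzma were lower in the CCl4 library and Gzmb was listed at 0 there. Nkg7 encodes a membrane protein of cytotoxic granules that is needed for their release. Nkg7 (NM_024253, chr7:43437138-43438246) was at 5.09 RPKM in the oil library (4.47 to 5.78) and at 3.18 RPKM in the CCl4 library (2.71 to 3.70), from at least 240 and at least 167 reads. The ratio was 0.624 (0.509 to 0.764). Granzyme A and granzyme B are serine proteases delivered into target cells. Gzma (NM_010370, chr13:113093824-113100981) was at 3.79 RPKM in the oil library (3.27 to 4.36) and at 1.96 RPKM in the CCl4 library (1.61 to 2.35), from at least 193 and at least 111 reads, and the ratio was 0.516 (0.405 to 0.655). Its annotated span overlaps that of Cdc20b, for which no value was analysed here, and whether reads were counted by strand is not given in the sources used here. Gzmb (NM_013542, chr14:56258836-56262334) was at 2.92 RPKM in the oil library and listed at 0 in the CCl4 library.

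If that 0 stands for a level under the cutoff, the log2 ratio of Gzmb was at most -1.55, which 1.76% of the listed genes fell below. Only 161 genes of the table were listed in the oil library and at 0 in the CCl4 library, against 1162 with the opposite pattern. The log2 ratios of Nkg7 and Gzma were -0.68 and -0.95, inside the fold, and -1.01 and -1.28 after scaling to the median mRNA. Gzma relative to Nkg7 was 0.745 in the oil and 0.615 in the CCl4 library, and the change of 0.827 times had a counting interval of 0.601 to 1.13, so unequal ratios of these 2 genes were not detectable at this depth.

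**Figure D2:**
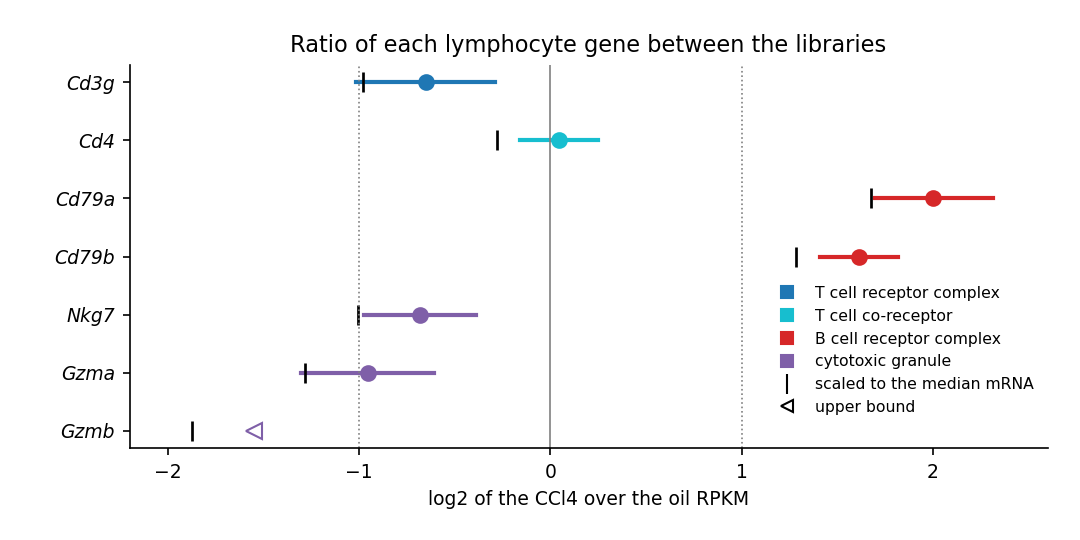
Log2 ratio, CCl4 over oil RPKM, for the 7 listed genes, with 95% counting intervals as horizontal lines, colours for the receptor or granule group, black ticks for the value after scaling to the median mRNA, and dotted lines at a log2 ratio of 1 in either direction. The open triangle of Gzmb is an upper bound. Cd79a at 2.001 and Cd79b at 1.61 lie beyond the right dotted line, and all other genes lie at 0.05 or below.

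The order of the levels differed between the libraries. In the oil library Nkg7 came first, followed by Gzma and Cd79b, whose counting intervals overlapped, then Cd3g and Cd4, which overlapped too, and Cd79a last. Gzmb lay between Cd79b and Cd3g, but its reads were too loosely bounded to place it. In the CCl4 library Cd79b came first, Cd79a second and Nkg7 next, each clear of the next interval, and Cd4, Gzma and Cd3g followed with overlapping intervals. Summed over each group, the B cell receptor genes went from 5.07 to 16.8 RPKM and the granule genes from 11.8 to 5.13 RPKM, listed zeros counted as 0.

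The regions before the start of Cd79a and the 3 granule genes are shown because Cd79a went the opposite way to Nkg7 and Gzma. RefSeq promoter sequences of GRCm38.p6 were available for 7 of the 9 genes and were searched from 250 bases to 1 base before the annotated start, on both strands, for the ETS core AGGAAG, the T-box core AGGTGT and the RUNX core TGTGGT, letters bound by transcription factor families of lymphocytes. The last 150 bases are printed 5′ to 3′ on the strand of the gene, with matches in capitals, for Cd79a at chr7:24897347-24897496 (plus strand), Nkg7 at chr7:43436988-43437137 (plus strand), Gzma at chr13:113100982-113101131 (minus strand) and Gzmb at chr14:56262335-56262484 (minus strand).
Cd79a: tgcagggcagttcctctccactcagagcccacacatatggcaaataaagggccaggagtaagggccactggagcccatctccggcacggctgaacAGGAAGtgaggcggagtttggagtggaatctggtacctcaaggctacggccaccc
Nkg7: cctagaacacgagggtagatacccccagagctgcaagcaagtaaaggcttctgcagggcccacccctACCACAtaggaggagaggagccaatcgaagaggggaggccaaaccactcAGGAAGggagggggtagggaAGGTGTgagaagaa
Gzma: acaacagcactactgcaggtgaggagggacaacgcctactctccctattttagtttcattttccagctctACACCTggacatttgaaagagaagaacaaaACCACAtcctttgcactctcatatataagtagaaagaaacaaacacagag
Gzmb: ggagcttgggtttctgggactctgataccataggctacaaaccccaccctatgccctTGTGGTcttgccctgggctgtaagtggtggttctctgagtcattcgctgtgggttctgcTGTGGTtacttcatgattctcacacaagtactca

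These motifs were chosen after the sequences were seen, so nothing is read from how many members hold them. All 3 granule genes held the RUNX core, Nkg7 and Gzma on the minus strand and Gzmb at 2 places on the plus strand. These letters occur in 14.0% of 32851 promoters of the same length. Nkg7 and Gzma also held the T-box core, as did Cd3e and Cd3g, against 11.8% of all promoters. The Cd79a window held the ETS core once, starting at position -55, and neither of the other cores. The ETS core occurs in 29.5% of promoters, and Nkg7 and Cd3e held it too. Cd8a held none of the 3. These matches describe the letters alone, and no binding was measured.

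Relations between genes within a library do not depend on how the libraries are scaled. Cd79a was below Cd3g in the oil library, at 0.537 times its level, and above it in the CCl4 library, at 3.38 times, so the ratio grew 6.29-fold (4.50 to 8.78). Cd79b was 1.405 times Cd3g in the oil and 6.75 times in the CCl4 library, a 4.80-fold growth (3.59 to 6.43). Over the 8 pairings of Cd79a or Cd79b with Cd3g, Cd4, Nkg7 or Gzma the growth ranged from 2.96-fold to 7.76-fold. The counting interval lay above 1 in 8 of 8, a direction that follows from the member ratios given above. The pairings reuse the same genes and libraries, so they are not separate evidence and give only the size of the growth.

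Ptprc (CD45), the phosphatase carried by all nucleated blood cells, was used as a common leukocyte reference, a choice made after its values were seen. Its level was 13.0 RPKM in oil and 23.0 RPKM in CCl4. Relative to Ptprc, Cd79a grew 2.26-fold (1.82 to 2.82) and Cd79b 1.72-fold (1.49 to 2.001). Relative to the same gene Cd3g stood at 0.359 times its oil value (0.277 to 0.463), Cd4 at 0.581 (0.501 to 0.674), Nkg7 at 0.352 (0.286 to 0.432) and Gzma at 0.291 (0.227 to 0.371). Ptprc had the lowest log2 ratio of the 12 pan-leukocyte genes, 0.83 against a median of 1.16, a choice of reference that shows the B cell genes at their most favourable. Against each of the 12 in turn, Cd79a grew between 1.31-fold and 2.26-fold, with the counting interval above 1 for 12 of 12. Cd79b grew between 1.001-fold and 1.72-fold, with the interval above 1 for 9 of 12, and for Laptm5, Cd48 and Itgb2 it spanned 1. Cd3g, Cd4, Nkg7 and Gzma lay below 1 with their intervals against 12 of 12 genes, Cd4 between 0.338 and 0.581 times its oil value and the other 3 between 0.169 and 0.359 times.

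**Figure D3:**
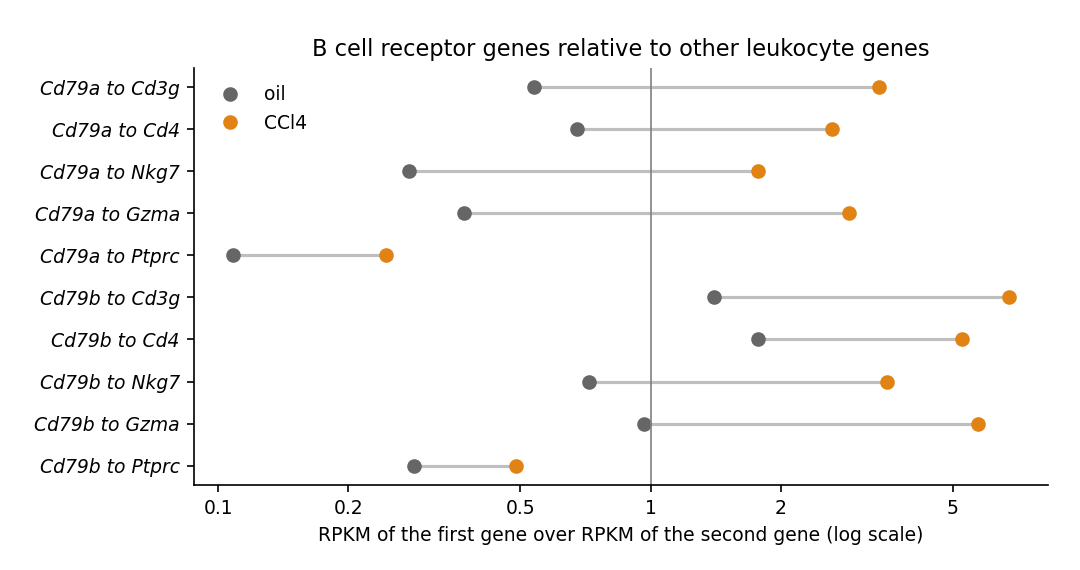
RPKM of Cd79a or Cd79b divided by that of another leukocyte gene in the same library, on a log axis, for the oil library (grey) and the CCl4 library (orange), with the vertical line at equal levels. Every orange point lies to the right of its grey point. Among the pairs drawn the gap is smallest for Cd79b to Ptprc, from 0.283 to 0.487. Of 12 pan-leukocyte genes, Ptprc is the reference most favourable to the B cell genes.

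Other genes of the B cell lineage with a value in both libraries were higher in the CCl4 library as well. Of 18 B cell genes, Cd79a and Cd79b among them, 15 were listed in at least 1 library. The 7 that were listed in both libraries all had a higher CCl4 level, 8 more were listed in the CCl4 library only, and 0 in the oil library only, where all genes gave 1162 and 161. With listed zeros at the cutoff 8 were past the fold upward and 0 downward, against 16.5% and 5.39% of all listed genes, and the median log2 ratio was 1.19 against 0.33. After scaling to the median mRNA 6 remained past the fold upward, against 9.04% of all listed genes. If the oil 0 stands for a level under the cutoff, a gene listed only in the CCl4 library must have a higher value there. Without Cd79a and Cd79b, 5 genes had values in both libraries, of which 5 were higher and 3 past the fold, with a median of 1.19 against 0.30 over all genes listed in both. After scaling to the median mRNA only Cd22 of these stayed past the fold, at a log2 ratio of 1.59, with Spib at 0.95 and Cd72 at 0.87.

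Cd22, an inhibitory co-receptor of the B cell receptor, went from 1.35 to 5.11 RPKM with a log2 ratio of 1.92 (1.56 to 2.29), close to that of Cd79a. Spib, a transcription factor of B cells and plasmacytoid dendritic cells, went from 1.60 to 3.87 RPKM (1.27, interval 1.07 to 1.48). Cd72, a further B cell co-receptor, was the most abundant gene of the list and went from 10.8 to 24.6 RPKM (1.19, interval 1.08 to 1.31). Bank1, a scaffold of B cell receptor signalling, went from 2.73 to 4.50 RPKM (0.72, interval 0.11 to 1.35) and stayed inside the fold.

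Among the B cell genes listed in the CCl4 library only, and named here after their values were seen, were Ms4a1, which encodes CD20, at 1.95 RPKM and the adaptor Blnk at 5.02 RPKM, which macrophages also express. The transcription factor genes Pax5 and Ebf1, which set B cell identity, and the complement receptor Cr2 were listed at 0 in both libraries. Of 6 plasma cell genes 4 were listed, 0 past the fold upward and 1 downward, against 16.5% and 5.39% of all listed genes. Jchain, which joins secreted antibodies, was at 2.85 and 3.94 RPKM (log2 ratio 0.47, interval 0.27 to 0.67). Mzb1 and Prdm1 were listed in the CCl4 library only, at 1.23 and 1.58 RPKM. Xbp1, past the fold downward from 91.9 to 42.1 RPKM, is also an abundant hepatocyte gene.

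The T cell genes were divided. Of 19 genes of the receptor complex and its signalling, Cd3e and Cd3g among them, 12 were listed. Of these 1 was past the fold upward and 0 downward, against 16.5% and 5.39% of all listed genes. The median log2 ratio was -0.00, the midpoint of bounds at the cutoff, with 6 ratios above and 6 below 0. The 7 listed in both libraries had a median of -0.16, and of -0.01 without Cd3g. After scaling to the median mRNA 3 ratios lay above and 9 below 0. By that scaling 1 gene (Il7r) was past the fold upward and 1 (Zap70) downward, against 9.04% and 9.82% of all listed genes. Zap70, the kinase that the CD3 and ζ chains recruit, was the lowest at 3.67 and 1.86 RPKM (-0.98, interval -1.30 to -0.67). Lat, the adaptor that ZAP-70 phosphorylates, was at 2.64 and 1.98 RPKM (-0.42, interval -0.73 to -0.10). Lck, the kinase bound to CD4 and CD8, was at 2.85 and 2.55 RPKM, and its interval from -0.38 to 0.05 spanned 0. The intervals of Thy1 (2.51 and 2.75 RPKM, -0.11 to 0.38) and of the adhesion receptor Cd2 (2.03 and 2.51 RPKM, -0.02 to 0.64) spanned 0 as well. The gene past the fold upward was Il7r, the interleukin 7 receptor also found on innate lymphoid and early B cells, at 3.01 RPKM in the CCl4 library and listed at 0 in the oil library.

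Among 15 genes of T cell subsets and migration, 8 were listed. Upward 1 was past the fold and downward 2, against 16.5% and 5.39% of all listed genes. Foxp3, the factor that defines regulatory T cells, was at 2.12 and 2.82 RPKM (0.41, interval 0.16 to 0.66). The chemokine receptor Cxcr3 was at 2.51 and 2.85 RPKM, with an interval from -0.18 to 0.54. Cxcr6, which holds T and NK cells in the liver sinusoids, was past the fold downward at 3.63 and 1.36 RPKM (-1.42, interval -1.89 to -0.97), whereas its ligand Cxcl16 was at 11.0 and 35.8 RPKM (1.70, interval 1.61 to 1.79). Ccr7, the lymph node homing receptor of naive T cells, B cells and dendritic cells, was listed only in the CCl4 library, at 2.07 RPKM, and was past the fold, though not after scaling to the median mRNA.

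Of 18 NK cell genes found, 8 were listed and 10 were at 0 in both libraries, against 40.9% of all genes with a symbol, among them the activating receptor Ncr1, the factors Eomes and Tbx21, and the Klra4, Klra7, Klra8 and Klra9 receptors, near-identical copies between which reads may be split. The 2 past the fold upward were Tyrobp (80.5 and 274.4 RPKM) and Fcgr3 (29.6 and 104.3 RPKM), an adaptor and an Fc receptor that macrophages express abundantly. Over all listed genes 16.5% were past it upward. Il2rb, the interleukin 2 and 15 receptor chain of NK and T cells, was at 6.53 and 3.83 RPKM (-0.77, interval -0.98 to -0.56), and past the fold downward after scaling to the median mRNA. Klrk1, which encodes the receptor NKG2D, was at 1.63 and 1.62 RPKM, and its interval from -0.24 to 0.22 spanned 0. Klrb1c, the NK1.1 antigen, was listed only in the oil library, at 1.53 RPKM, and Klrd1, the receptor chain CD94, only in the CCl4 library, at 1.68 RPKM, both named after their values were seen. The cytokine gene Ccl5 was at 2.57 and 2.68 RPKM (-0.39 to 0.52) and Xcl1 at 1.03 and 1.48 RPKM (-0.47 to 1.56), with intervals spanning 0.

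Of the 12 granule genes, the 3 members included, 6 were listed, with a median log2 ratio of -0.52. Upward 0 were past the fold, against 16.5% of all listed genes, and downward 1 (Gzmb), against 5.39%. After scaling to the median mRNA 3 were past it downward, against 9.82% of all listed genes. All of these downward counts come from Nkg7, Gzma and Gzmb. The other 3 listed genes had a median of 0.34, next to the 0.33 of all listed genes, and 0 of them were past the fold. Ctsw, a cathepsin of cytotoxic lymphocytes, was at 3.50 and 2.74 RPKM with an interval from -0.74 to 0.03. Srgn, the granule proteoglycan serglycin found in most blood cells, was at 37.6 and 58.4 RPKM (0.64, interval 0.55 to 0.73), and Serpinb9, a granzyme B inhibitor, at 3.29 and 4.18 RPKM (0.34, interval 0.20 to 0.49). Perforin (Prf1), Gzmc, Gzmk, Gzmm, Fasl and Cst7 were listed at 0 in both libraries, as were 40.9% of all genes with a symbol.

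**Figure D4:**
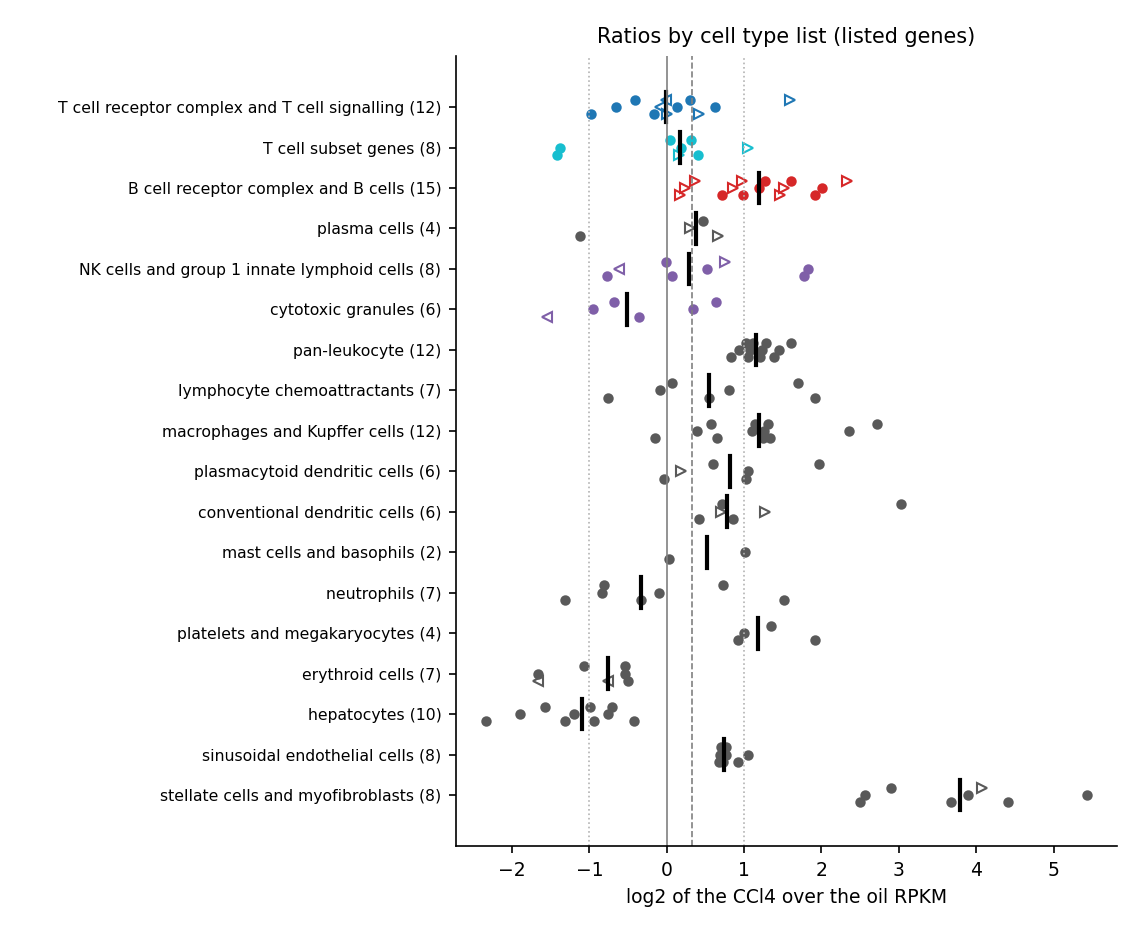
Log2 ratio, CCl4 over oil RPKM, for each listed gene of 18 cell type and function lists, with the number of listed genes in brackets, filled points for genes listed in both libraries and open triangles for bounds from a listed 0, pointing the way the true value may lie. Black bars are list medians, the dashed line is the median of 0.33 over all listed genes and dotted lines mark a log2 ratio of 1. The 7 filled points of the B cell list lie above 0, and its 8 triangles could not lie below 0 because those genes are listed in the CCl4 library only. The median of -0.00 of the T cell signalling list falls between bounds at the cutoff, and its 7 filled points have a median of -0.16.

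Genes of other cell types moved with the B cell genes. All 12 pan-leukocyte genes were higher in the CCl4 library, 10 of them past the fold, with a median log2 ratio of 1.16 and summed levels of 237.6 RPKM in oil and 558.4 RPKM in CCl4. After scaling to the median mRNA 3 of them were past the fold. The shares of all listed genes, for this and the list counts that follow, were 16.5% upward and 5.39% downward. After that scaling they were 9.04% and 9.82%. Cd52 was at 42.9 and 100.2 RPKM, Laptm5 at 30.3 and 92.5 RPKM, Coro1a at 34.8 and 75.3 RPKM and Itgb2 at 20.5 and 53.6 RPKM. Of the 12 macrophage and Kupffer cell genes 8 were past the fold upward, or 3 after that scaling, with a median of 1.19 and sums of 1834 and 4839 RPKM, and the 2 highest by mean level were Lyz2 at 321 and 1645 RPKM and Cd5l at 277.6 and 594.6 RPKM. The stellate cell and myofibroblast list had 8 of 8 genes past the fold upward and a median of 3.78, with Col3a1 at 19.6 and 290.1 RPKM. The 8 sinusoidal endothelial genes were listed with 1 past the fold upward (0 after that scaling) and a median of 0.75. The part of these cell types in the B cell result was not tested.

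Plasmacytoid dendritic cells share Cd4 and Spib with lymphocytes. Of their 8 genes 6 were listed, 3 past the fold upward (1 after scaling to the median mRNA) and 0 downward, with Irf8 at 19.9 and 41.3 RPKM and Bst2 at 223.0 and 218.1 RPKM, and Ccr9 and Cd209d at 0 in both libraries. Of the 8 conventional dendritic cell genes 6 were listed and 2 were past the fold upward (1 after that scaling), with Zbtb46 at 7.44 and 13.5 RPKM, Itgax at 1.25 and 10.2 RPKM, and the defining receptor gene Xcr1 at 0 in both. Mast cells and basophils can also make granzyme B, and of their 7 genes Cpa3, Mcpt8, Mcpt4, Fcer1a and Ms4a2 were listed at 0 in both libraries and 1 was past the fold upward (0 after that scaling).

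Blood cells other than lymphocytes did not share 1 direction. Of 7 neutrophil genes 5 had a log2 ratio below 0, and 1 was past the fold upward and 1 downward (1 and 3 after scaling to the median mRNA), with S100a9 at 163.1 and 91.5 RPKM and S100a8 at 114.4 and 65.2 RPKM. The erythroid list had 3 of 7 genes past the fold downward (4 after that scaling) and 0 upward, with Hbb-bs at 1091 and 773 RPKM. The platelet list had 3 of 4 listed genes past it upward (2 after that scaling), with Pf4 at 4.46 and 16.8 RPKM. The share of blood in either preparation was not tested. Of the 10 hepatocyte genes 5 were past the fold downward, or 9 after scaling to the median mRNA, and the median log2 ratio was -1.10. Alb had the smallest change of the 10, at -0.42, and Apoa1, next in mean level, was at 4086 and 1650 RPKM (-1.31).

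Chemokines and cytokines that attract or sustain lymphocytes were mixed. Of 11 found, 7 were listed, 2 past the fold upward and 0 downward (2 and 1 after scaling to the median mRNA). Cxcl12, which draws naive lymphocytes and plasma cells, was at 14.6 and 54.9 RPKM (1.91, interval 1.64 to 2.19), and with Cxcl16 made up the 2 past the fold. Cxcl13, the B cell chemokine, was at 5.95 and 8.68 RPKM (0.54, interval 0.36 to 0.73), while its receptor gene Cxcr5 was listed in the CCl4 library only, at 1.18 RPKM. Cxcl10, a ligand of the receptor encoded by Cxcr3, was at 4.48 and 2.64 RPKM (-0.76, interval -1.15 to -0.38), and Cxcl9, a further ligand, at 2.26 and 2.13 RPKM. Il15, which sustains NK cells, was at 2.01 and 3.51 RPKM (0.80, interval 0.52 to 1.10). Ccl19, Ccl21a, Il7 and the B cell survival factor gene Tnfsf13b were listed at 0 in both libraries.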

How the data were processed

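RNA-seq of 1 oil and 1 CCl4 library of primary hepatocytes was analysed. The authors deposited RPKM values for mRNAs, lncRNAs and lncRNAs absent from the annotation, with values below 1 listed as 0, and for the last kind also counts, lengths as another value and RPKM without the cutoff. Submitters' processing notes name CASAVA 1.4, TopHat2 and mm10. The counting program and annotation are not given in the sources used here. The deposited tables also hold the authors' own fold changes, p-values and q-values, which were not used, so a value listed at 0 was not restored from them.

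Symbols for the RefSeq identifiers came from a GRCm38.p6 gene table (27049 of 27457 mRNA transcripts), and the transcript with the highest mean RPKM stood for a gene. Ratios are log2 values, CCl4 over oil RPKM, with nothing added, and a listed 0 was set to 1 RPKM. Library totals were searched over RefSeq genes shorter than 400 bases (whole reads in 203 of 211 for oil and 215 of 223 for CCl4). For each transcript the shortest length from 50 to 30000 bases giving whole reads in each library with a value was taken. Given the fitted totals, the reads are thus lower bounds and the intervals too wide rather than too narrow. On 1397 lncRNAs with deposited counts the recovered reads were equal in 78.0% and above them in 0. That check used totals taken from the same deposited counts, 62438197 reads for oil and 70960849 for CCl4. These are larger than the fitted totals used for the members, which the check therefore did not test. Why the totals differ was not tested. Where 1 library alone had a value, the bound is loose. Ratios carry exact Clopper-Pearson intervals, levels exact Poisson intervals and pairs of genes exact conditional odds ratio intervals. PCR copies are not independent molecules. The recovery was also tested on simulated data.

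The members and gene lists were chosen with earlier results of these data known, and the promoter motifs after the sequences were seen. Named genes are the members, up to 6 listed genes with the highest mean RPKM in each lymphocyte, leukocyte and chemoattractant list, and up to 2 in lists of other cell types, besides genes named as listed at 0 or as chosen after their values were seen. A few genes that this rule would name are not reported here. Alternatives were pseudocounts of 0.1 and 1 RPKM, scaling to the median mRNA, leaving the 10 most abundant transcripts out of the library sum, summing transcripts, other folds and a filter on low values. Work was done in Python 3.11.15 with scipy 1.17.1, pandas 2.3.3, numpy 2.4.6 and, for plots, matplotlib 3.10.9.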

Additional observations from a re-analysis of the deposited data

How the results depend on the processing

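The 2 genes past the fold upward, Cd79a and Cd79b, were past it in every alternative listed under the processing except a log2 ratio of at least 2, where 1 (Cd79a) was. The 1 gene past it downward (Gzmb) became 3 after scaling to the median mRNA (with Gzma and Nkg7), 2 with the 10 most abundant transcripts left out of the library sum (with Gzma), 4 at a 1.5-fold limit (with Cd3g, Nkg7 and Gzma), 0 at a log2 ratio of at least 2 and 0 when a gene had to be listed in both libraries. The last follows from how that alternative is built, since Gzmb is listed at 0 in the CCl4 library. The median log2 ratio of the 7 listed genes, -0.65, lay between -0.98 and -0.30 under the alternatives. Of 35 values of single genes under alternatives, 25 stayed within the counting interval of the main value or equal to it and 10 moved, and none of the genes past the fold changed sign. Cd4 was at 0.05 and at -0.28 after scaling to the median mRNA, so its direction depends on the scaling.

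Scaling to the median mRNA, added for the lists after seeing the data, gave medians, members included, of 0.87 for B cells, -0.33 for T cell signalling, -0.84 for cytotoxic granules and -0.03 for NK cells. No paired analysis was possible because each group has 1 library. All members lay at 11.2 RPKM or less, and levels under 1 RPKM could not be compared.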
